A study of Mus musculus with 12 samples.

Results

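The 10 genes described here are Tek, Robo4, Eng, Emcn, Cdh5, Lipg, Col18a1, Lrg1, Clca3a1 and Tgm2, out of 28999 genes in the deposited expression table. They are genes of the vessel wall, some of them also used by blood stem cells, together with genes whose level was much higher after the drug 5-fluorouracil (5-FU, which kills cycling cells). The large risers were chosen by their measured change between 5-FU and untreated libraries, so that comparison is given for these genes as a description without a test. RNA was sequenced from mouse bone marrow cells that the labels call long-term haematopoietic stem cells, or LT-HSCs, which sustain blood formation. The 4 groups held 3 libraries each. They were Trim47-/- after 5-FU, wild type after 5-FU, Trim47-/- untreated and wild type untreated, with 10 days of 5-FU in the labels of the treated groups. The Trim47 product is a tripartite-motif ubiquitin ligase. The sources used here do not give the 5-FU dose, the age and sex of the mice, the surface markers of the sort or the deleted part of Trim47.

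Endothelial cells and blood stem cells arise from a common lineage in the embryo, through the haemogenic endothelium, and adult LT-HSCs keep many surface proteins of vessels. The receptor tyrosine kinase encoded by Tek (TIE2) binds angiopoietins and is known in the marrow for its link with stem cell quiescence. Robo4 is a roundabout receptor of endothelium that also helps stem cells to lodge in the marrow, Eng (endoglin) is a co-receptor of the TGF-beta and BMP family, and Emcn (endomucin) is a sialomucin of venous endothelium that also marks LT-HSCs. Cdh5 (VE-cadherin) is the adhesion molecule of endothelial junctions. Lipg is the secreted endothelial lipase, which cleaves lipoprotein phospholipids, Col18a1 is the basement membrane collagen from which endostatin is released, and Lrg1 is a secreted leucine-rich glycoprotein known from vessels and from neutrophil granules. Clca3a1 belongs to the family of calcium-activated chloride channel regulators and is known from lymphatic endothelium. Tgm2 is transglutaminase 2, a protein cross-linking enzyme.

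Total counts ran from 13919649 to 13953510 in Trim47-/- after 5-FU, 15111811 to 15151589 in wild type after 5-FU, 20661120 to 20703198 in untreated Trim47-/- and 14828152 to 14885673 in untreated wild type. Levels below are in CPM, that is, reads of a gene over the TMM-scaled size of its library, and log2 changes come from the edgeR quasi-likelihood fit, with p-values adjusted over the 16319 genes that passed the filter on low counts. All 10 genes passed it. Within groups their libraries varied about as much as counting error alone would give, since the ratio of chi-square to degrees of freedom had a median of 0.877 over 40 gene and group combinations. The labels do not say that libraries of a group came from separate animals, so the p-values rest on differences among libraries that may be technical in origin. Trim47 itself stood at 10.1, 12.2 and 11.6 CPM in the libraries labelled Trim47-/- after 5-FU, against 38.1, 33.3 and 34.7 CPM in wild type after 5-FU (log2 change -1.64, SE 0.121, adjusted p = 5.5e-07). In untreated mice it stood at 23.7, 18.9 and 16.6 CPM in the libraries labelled Trim47-/-, against 24.6, 23.8 and 24.7 CPM in wild type (log2 change -0.31, SE 0.115, adjusted p = 0.0632). Without Trim47-/- untreated replicate 1 that change was -0.45 with an adjusted p of 0.0046. Trim47 RNA was thus present in all libraries labelled Trim47-/-, and whether it lay outside the deleted part was not tested. Every direction given below for Trim47-/- therefore rests on the label of the libraries.

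After 5-FU, the libraries labelled Trim47-/- held less RNA of the receptor and surface genes Tek, Robo4, Eng and Emcn than wild type, and without the drug they held more. The deficits after 5-FU ran from a log2 change of -0.55 for Eng to -1.18 for Emcn. Without the drug the excess ran from 0.24 for Eng to 0.67 for Emcn. Tgm2 had the opposite pattern, with 0.10 after 5-FU and -0.60 untreated. Clca3a1 and Col18a1 were lower in Trim47-/- after 5-FU and had changes near 0 in untreated cells.

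After 5-FU, 7 of the 10 genes passed an adjusted p under 0.05 between genotypes, against 54.7% of all genes tested. Lower levels in Trim47-/- were found for 6 of the 10, against 27.6% of all genes, and a higher level for 1 of the 10, against 27.2%. Emcn and Tek were at least 2-fold lower, 2 of the 10 against 6.13% of all genes. All 3 Trim47-/- libraries lay below all 3 of wild type for 7 genes, against 30.7% of all genes, and above them for 2, against 30.5%. The median log2 change of the 10 was -0.62, beside 0.00 over all genes. In untreated cells 7 of the 10 passed, against 33% of all genes. Higher levels in Trim47-/- were found for 6, against 17.6%, and a lower level for 1, against 15.4%. All 3 Trim47-/- libraries lay above all 3 of wild type for 6 genes, against 26.3%, and below them for 2, against 21.6%. The median of the 10 was 0.25, beside 0.03 over all genes. The 4 genes that passed as lower in Trim47-/- after 5-FU and as higher untreated compare with 11.1% of all genes, or 1806, and the 1 gene with the opposite pair of calls with 9.69%, or 1582. By separation of the libraries alone, 5 genes, these 4 and Lipg, were lower after 5-FU and higher untreated, against 15% of all genes, and Tgm2 had the opposite pattern, against 12.7%. The 2 genotype comparisons share no library with each other, but each shares its libraries with the 5-FU comparisons that chose the members. Choosing a riser by its wild-type libraries would by itself favour a lower Trim47-/- level after 5-FU and a higher one untreated. Choosing it by Trim47-/- libraries would favour the reverse, and which libraries were used is not stated. The counts and medians of the 10 are therefore a description, and the p-values of risers share this limit. In bulk samples, fewer cells of a type and less RNA per cell cannot be told apart.

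**Figure D1:**
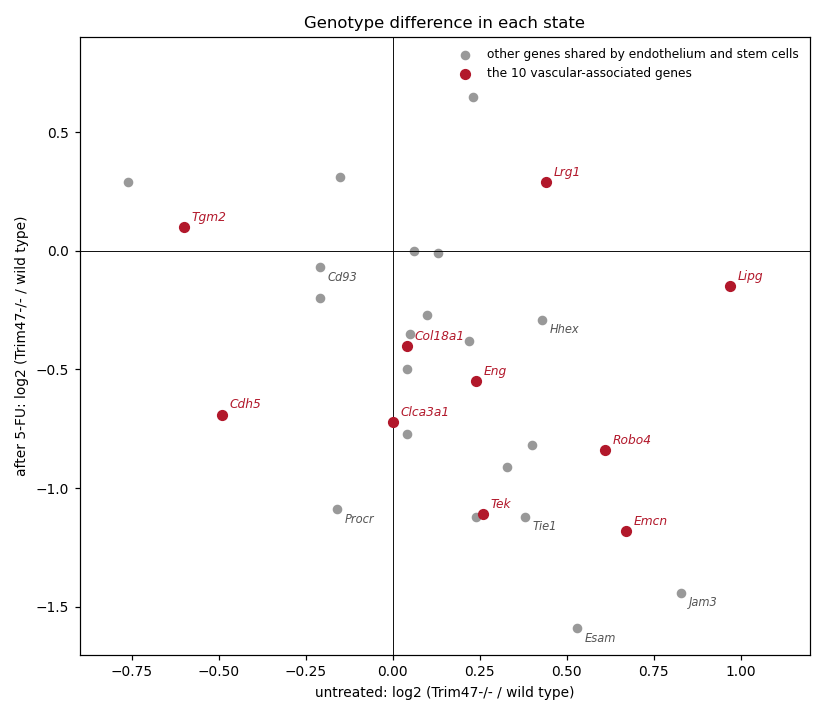
Each point is a gene, placed by its log2 change between Trim47-/- and wild type after 5-FU (y axis) and in untreated cells (x axis), with the 10 genes in red and 20 other genes shared by endothelium and stem cells in grey. Tek, Emcn, Robo4 and Eng lie right of 0 and below 0, and Tgm2 lies left of 0 and above 0.

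Among the receptors, Tek (chr4:94739289-94874976, plus strand of GRCm38, protein coding like the rest of the 10) stood at 12.4, 12.9 and 15.1 CPM in Trim47-/- after 5-FU, against 31.1, 29.8 and 26.5 CPM in wild type after 5-FU. The libraries of these groups were well apart, and the log2 change was -1.11 (SE 0.0877, adjusted p = 9.51e-07). In untreated cells Tek stood at 12.3, 13 and 12.8 CPM in Trim47-/-, against 11.3, 10.7 and 9.81 CPM in wild type. The 3 untreated Trim47-/- libraries were above the 3 of wild type by a log2 change of 0.26 (SE 0.0908, adjusted p = 0.0459). Wild type after 5-FU was thus the 1 high group for Tek, and the other 3 groups lay between 9.81 and 15.1 CPM. The untreated call was not stable. The adjusted p was 0.089 without wild type untreated replicate 2, 0.149 without replicate 3 of that group, and 0.0605, 0.108 and 0.0965 without Trim47-/- untreated replicates 1, 2 and 3. It was 0.0555 and 0.0529 without wild type after 5-FU replicates 2 and 3, and 0.0508 without Trim47-/- after 5-FU replicate 2. The DESeq2 test gave 0.13, edgeR with DESeq2 size factors 0.0607, edgeR without the filter on low counts 0.0692, and edgeR with the replicate number as a block 0.0759.

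Robo4 (chr9:37401897-37415115, plus strand) stood at 16.8, 15.1 and 16.2 CPM in Trim47-/- after 5-FU, against 28.1, 28 and 29.8 CPM in wild type after 5-FU. Without the drug Robo4 stood at 55.7, 56.6 and 54.0 CPM in Trim47-/-, against 37.9, 35.2 and 35.9 CPM in wild type. The 4 groups did not overlap, and Trim47-/- held both the lowest group, after 5-FU, and the highest, untreated. The log2 change between genotypes was -0.84 after 5-FU (SE 0.0534, adjusted p = 1.75e-07) and 0.61 untreated (SE 0.0496, adjusted p = 3.93e-06).

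Eng (chr2:32646595-32682669, plus strand) stood at 85.4, 90.6 and 82.1 CPM in Trim47-/- after 5-FU, against 123, 123 and 132 CPM in wild type after 5-FU (log2 change -0.55, SE 0.0433, adjusted p = 8.96e-07). Untreated libraries had Eng at 129, 135 and 136 CPM in Trim47-/-, against 109, 114 and 115 CPM in wild type (log2 change 0.24, SE 0.0426, adjusted p = 0.00115). Within each state the 3 libraries of 1 genotype lay apart from the 3 of the other, and the lowest group was Trim47-/- after 5-FU. Eng shares 61 exonic bases, 1.51% of its exonic length, with Fpgs on the opposite strand.

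Emcn (chr3:137341067-137432185, plus strand) had a change between genotypes after 5-FU of a size within error of that of Tek. It stood at 5.06, 5.79 and 5.8 CPM in Trim47-/- after 5-FU, against 11.7, 12.8 and 13.3 CPM in wild type after 5-FU. In the untreated groups Emcn stood at 18.9, 17.8 and 17.4 CPM in Trim47-/-, against 11.2, 11.1 and 11.8 CPM in wild type. The Trim47-/- libraries formed the lowest and the highest group, and the wild-type libraries lay between them, with overlap between wild type after 5-FU and wild type untreated. The log2 change between genotypes was -1.18 after 5-FU (SE 0.0817, adjusted p = 3.33e-07) and 0.67 untreated (SE 0.074, adjusted p = 4.62e-05).

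The promoters of these 4 surface genes are shown because the genotype difference of each turned in sign between treated and untreated cells. The untreated call of Tek was not stable, as given above. Tek also did not follow the others over the 12 libraries. Its Pearson correlation was 0.1 with Emcn, -0.19 with Robo4 and 0.27 with Eng. It was 0.95 for Emcn with Robo4, 0.96 for Emcn with Eng and 0.86 for Robo4 with Eng. Each run is the 250 bases before the RefSeq start site in GRCm38.p6, read 5′ to 3′ on the gene's own strand, and capitals mark the ETS motif AGGAAG on either strand (CTTCCT where it lies on the opposite strand), since ETS factors act in both endothelium and stem cells. The windows are chr4:94739039-94739288 for Tek, chr9:37401722-37401971 for Robo4, chr2:32646345-32646594 for Eng and chr3:137340828-137341077 for Emcn.
Tek: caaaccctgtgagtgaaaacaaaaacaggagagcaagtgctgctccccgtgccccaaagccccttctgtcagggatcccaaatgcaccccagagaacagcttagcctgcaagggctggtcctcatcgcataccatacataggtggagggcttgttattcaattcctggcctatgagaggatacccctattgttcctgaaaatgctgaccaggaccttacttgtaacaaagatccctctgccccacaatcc
Robo4: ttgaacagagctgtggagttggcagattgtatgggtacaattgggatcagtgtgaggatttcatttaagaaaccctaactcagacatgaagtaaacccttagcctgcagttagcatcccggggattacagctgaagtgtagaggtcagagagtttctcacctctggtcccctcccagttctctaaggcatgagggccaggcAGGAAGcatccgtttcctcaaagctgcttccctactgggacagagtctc
Eng: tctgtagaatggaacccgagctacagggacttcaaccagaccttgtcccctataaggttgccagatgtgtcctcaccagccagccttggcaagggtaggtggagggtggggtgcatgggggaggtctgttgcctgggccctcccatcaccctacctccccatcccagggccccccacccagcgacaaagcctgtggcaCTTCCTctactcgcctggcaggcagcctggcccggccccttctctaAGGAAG
Emcn: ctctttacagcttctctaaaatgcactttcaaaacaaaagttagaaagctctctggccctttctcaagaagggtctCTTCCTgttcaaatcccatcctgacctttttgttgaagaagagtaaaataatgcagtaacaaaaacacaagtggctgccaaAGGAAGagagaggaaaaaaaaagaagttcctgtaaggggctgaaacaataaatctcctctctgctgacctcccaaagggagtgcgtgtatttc
The Eng window held 2 matches, starting at -52 and -6, the Emcn window 2, starting at -174 and -93, and the Robo4 window 1, starting at -49, where positions are counted back from the start site. The Tek window held no match to these letters. AGGAAG was found in 29.5% of the 32851 promoter windows of the same length, and AGGAAG or the second ETS form searched, CGGAAG, in 39.2%. The GATA forms AGATAA or TGATAA were in none of these 4 windows, against 16.6% of all windows, and the AP-1 form TGANTCA and the FOX form TGTTTAC were in none of them, against 6.75% and 3.17%. The E-box form CANNTG occurred in all 4 windows, against 66.2% of all windows. Motifs were searched on both strands, the forms can overlap, and a match describes letters only. AGGAAG was not limited to these 4 genes. Among other members searched, the Lrg1 window held 3 matches, 1 Col18a1 window held 1 and the other 0, and the Clca3a1 window held 0. Whether matches go with the turned signs was not tested.

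The junction gene Cdh5 (chr8:104101625-104144511, plus strand) had few reads, with 3 to 17 counts a library. It stood at 0.65, 0.217 and 0.653 CPM in Trim47-/- after 5-FU, against 0.505, 1.01 and 0.949 CPM in wild type after 5-FU. Without the drug Cdh5 stood at 0.735, 0.835 and 0.733 CPM in Trim47-/-, against 1.11, 0.97 and 1.17 CPM in wild type. The treated groups overlapped, and the untreated ones did not. Neither difference passed, with log2 changes of -0.69 after 5-FU (95% interval -1.41 to 0.03, adjusted p = 0.134) and -0.49 untreated (95% interval -1.08 to 0.09, adjusted p = 0.238). Leaving out 1 library moved the treated change between -0.94 without wild type after 5-FU replicate 1, where it passed (adjusted p = 0.0423), and -0.33 without Trim47-/- after 5-FU replicate 2 (adjusted p = 0.512).

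**Figure D2:**
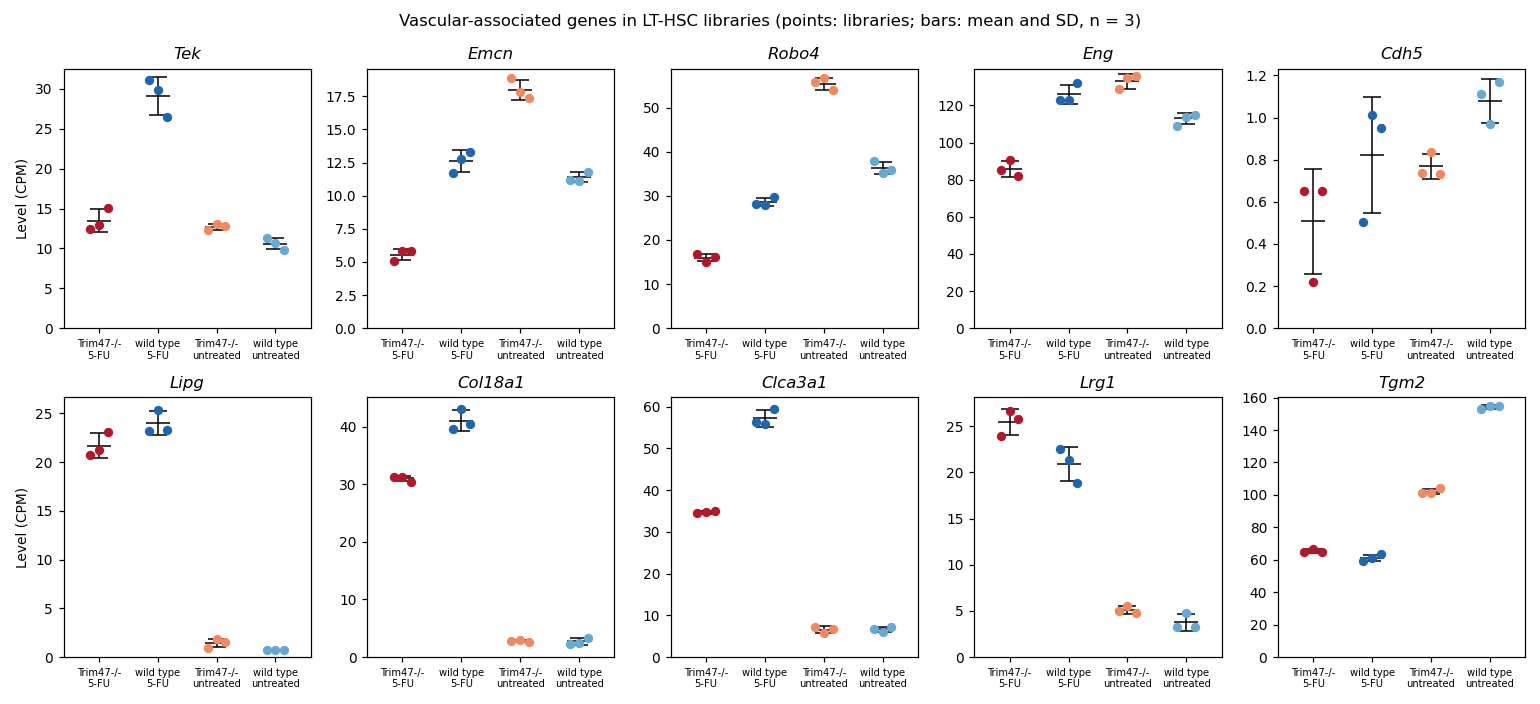
Each point is 1 library, with its level in CPM on a linear axis from 0 for each of the 10 genes, and black bars give the mean and SD of the 3 libraries of a group. Tek is high in wild type after 5-FU alone, and Robo4 and Emcn are lowest in Trim47-/- after 5-FU and highest in untreated Trim47-/-.

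Among the secreted genes, Col18a1 (chr10:77052178-77166548, minus strand) stood at 31.3, 31.2 and 30.4 CPM in Trim47-/- after 5-FU, against 39.5, 43 and 40.4 CPM in wild type after 5-FU. The treated libraries did not overlap, and the log2 change was -0.40 (SE 0.0808, adjusted p = 0.00126). Untreated libraries had Col18a1 at 2.79, 3.0 and 2.69 CPM in Trim47-/-, against 2.35, 2.49 and 3.39 CPM in wild type. These groups overlapped, and the log2 change of 0.04 had a 95% interval of -0.2 to 0.28 (adjusted p = 0.879).

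The endothelial lipase gene Lipg, on chromosome 18, stood at 20.7, 21.2 and 23.1 CPM in Trim47-/- after 5-FU, against 23.2, 25.4 and 23.3 CPM in wild type after 5-FU. The 3 Trim47-/- libraries lay just below the 3 of wild type, and the change did not pass (log2 change -0.15, 95% interval -0.37 to 0.08, adjusted p = 0.297). In untreated cells Lipg rested on few reads, with 20 to 37 counts in Trim47-/- and 10 to 11 in wild type. It stood at 0.981, 1.82 and 1.56 CPM in untreated Trim47-/-, against 0.761, 0.762 and 0.691 CPM in untreated wild type. All 3 Trim47-/- libraries were higher, by a log2 change of 0.97 (SE 0.225, adjusted p = 0.00651), and the adjusted p reached 0.0486 at most over the alternatives run.

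Lrg1 (chr17:56119678-56122001, minus strand) stood at 23.9, 26.7 and 25.8 CPM in Trim47-/- after 5-FU, against 22.5, 21.3 and 18.9 CPM in wild type after 5-FU. The groups did not overlap, but the log2 change of 0.29 did not pass (SE 0.114, adjusted p = 0.0527). In untreated cells it stood at 4.95, 5.55 and 4.79 CPM in Trim47-/-, against 3.25, 4.78 and 3.25 CPM in wild type (log2 change 0.44, SE 0.145, adjusted p = 0.0375). Both calls moved with 1 library and with the method. The treated difference passed without wild type untreated replicates 1, 2 or 3 (adjusted p = 0.0464, 0.0115 and 0.0459) and without wild type after 5-FU replicate 1 (0.0451). It also passed with the DESeq2 test (0.0425), with the replicate number as a block (0.0389) and with only the 6 libraries compared (0.0241). The untreated difference no longer passed without wild type untreated replicates 1 or 3 (0.133 and 0.134) or Trim47-/- untreated replicates 1 or 2 (0.0618 and 0.111), nor with the DESeq2 test (0.0566), without the filter on low counts (0.066) or with only the 6 libraries compared (0.101). Neutrophil markers moved with the treated comparison. The 12 listed genes summed to 6601 to 6979 CPM in Trim47-/- after 5-FU, against 4111 to 4189 CPM in wild type after 5-FU, and all 12 passed as higher. Their part in the Lrg1 values was not tested.

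Clca3a1 (chr3:144729677-144760977, minus strand) stood at 34.4, 34.8 and 35.1 CPM in Trim47-/- after 5-FU, against 56.2, 55.9 and 59.5 CPM in wild type after 5-FU. The libraries were far apart, with a log2 change of -0.72 (SE 0.075, adjusted p = 9.14e-06). In untreated cells it stood at 7.31, 5.75 and 6.79 CPM in Trim47-/-, against 6.71, 5.96 and 7.19 CPM in wild type. These overlapped, and the 95% interval of the log2 change was -0.18 to 0.18 (adjusted p = 0.997). Clca3a1 has a near-identical neighbour, Clca3a2, so its counts are uncertain where reads could be shared between them. Clca3a2 had 46 counts in all in Trim47-/- after 5-FU, 94 in wild type after 5-FU, 3 in untreated Trim47-/- and 19 in untreated wild type. Clca3a1 also shares 170 exonic bases, 4.36% of its exonic length, with Gm34866 on the opposite strand.

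The enzyme gene Tgm2 (chr2:158116402-158146436, minus strand) stood at 65.1, 66.9 and 64.8 CPM in Trim47-/- after 5-FU, against 59.4, 60.8 and 63.3 CPM in wild type after 5-FU. In untreated cells it stood at 101, 101 and 104 CPM in Trim47-/-, against 153, 155 and 155 CPM in wild type. The untreated difference was wide, with a log2 change of -0.60 (SE 0.0291, adjusted p = 6.05e-08), and the treated one was small, with a log2 change of 0.10 (SE 0.0302, adjusted p = 0.0208). The treated call was lost without wild type after 5-FU replicate 1 or 2 (adjusted p = 0.109 and 0.0521) and without Trim47-/- after 5-FU replicate 2 (0.0791). It was also lost with the DESeq2 test (0.104), without the filter on low counts (0.212) and with only the 6 libraries compared (0.0655). Tgm2 shares 8.03% of its exonic length with Rprd1b and 13.7% with Gm20412, both on the opposite strand, and whether the counting used strand is not known here.

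**Figure D3:**
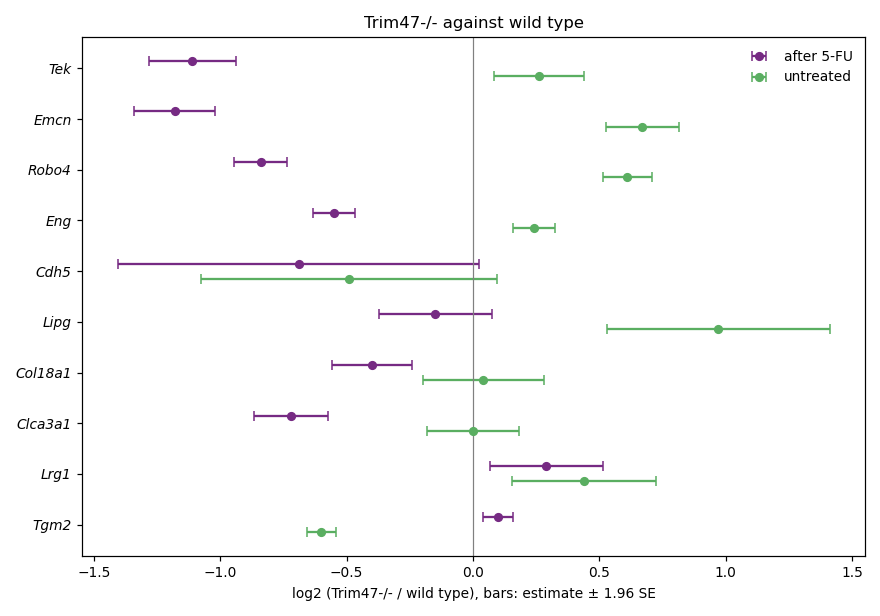
Points give the log2 change of each gene between Trim47-/- and wild type after 5-FU and in untreated cells. Bars give the 95% interval, a normal approximation from the SE. Emcn, Tek, Robo4 and Eng sit below 0 after 5-FU and above 0 untreated.

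The response to 5-FU is given next as a description, since it chose members. In wild type, 5 of the 10 genes were at least 2-fold higher after 5-FU than untreated, against 3.24% of all genes, and 1 was at least 2-fold lower, against 7.57%. Lipg had the largest log2 change, 5.01 (SE 0.17), from a mean of 24.0 ± 1.23 CPM after 5-FU against 0.738 ± 0.0406 CPM untreated (SD, n = 3 each). Col18a1 followed with 3.90 (SE 0.103), Clca3a1 with 3.11 (SE 0.0865), Lrg1 with 2.47 (SE 0.135) and Tek with 1.46 (SE 0.0892). The other surface genes had small changes, 0.17 for Eng, 0.15 for Emcn and -0.34 for Robo4. Tgm2 was at -1.33 (SE 0.03). The choice of members states no numeric limit. In wild type Tek, at 2.75-fold, had the smallest rise of the 5 genes that were at least 2-fold higher. Which members were taken as large risers is not stated.

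In libraries labelled Trim47-/-, 4 of the 10 were at least 2-fold higher after 5-FU than untreated, against 4.31% of all genes, and 2 were at least 2-fold lower, against 9.79%. The log2 changes were 3.89 for Lipg (SE 0.146), 3.45 for Col18a1 (SE 0.0985), 2.39 for Clca3a1 (SE 0.0841) and 2.32 for Lrg1 (SE 0.126). Tek, at least 2-fold higher after 5-FU in wild type, had 0.09 (SE 0.0894) here. Its means were 13.5 ± 1.42 CPM after 5-FU and 12.7 ± 0.39 CPM untreated. Robo4 was at -1.79 (SE 0.0527), Emcn at -1.70 (SE 0.0798), Eng at -0.63 (SE 0.0431) and Tgm2 at -0.63 (SE 0.0298). The 5-FU changes in the 2 genotypes share no library. The change in Trim47-/- minus that in wild type was -1.85 for Emcn (SE 0.11), -1.44 for Robo4 (SE 0.0729), -1.37 for Tek (SE 0.126), -1.12 for Lipg (SE 0.253), -0.80 for Eng (SE 0.0607) and -0.72 for Clca3a1 (SE 0.119). It was -0.45 for Col18a1 (SE 0.146), -0.20 for Cdh5 (SE 0.47), -0.15 for Lrg1 (SE 0.184) and 0.70 for Tgm2 (SE 0.042). The value of Cdh5 was 0.16 without Trim47-/- after 5-FU replicate 2, and that of Lrg1 came as near 0 as -0.05. These differences were not tested.

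**Figure D4:**
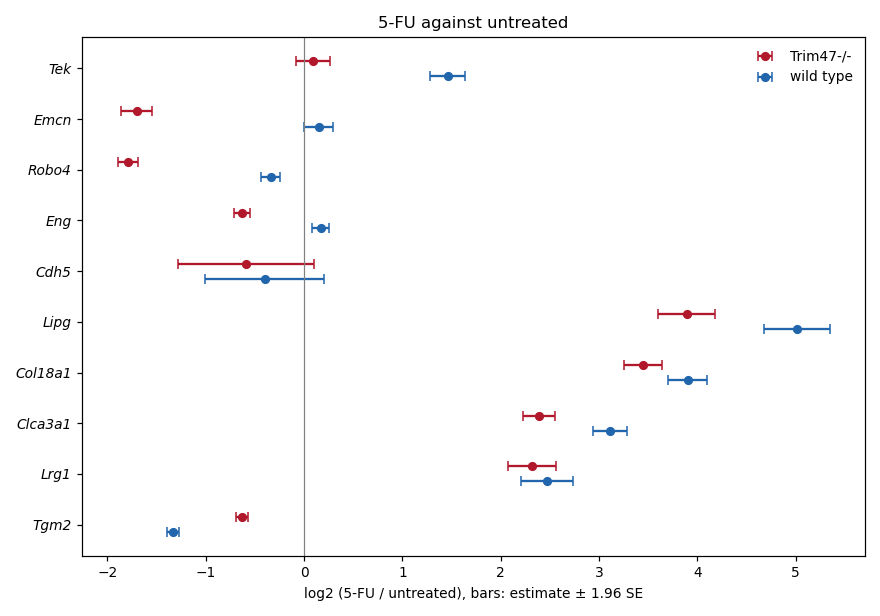
Points give the log2 change of each gene between 5-FU and untreated libraries in Trim47-/- and in wild type. Bars give the 95% interval, a normal approximation from the SE. Lipg, Col18a1, Clca3a1 and Lrg1 lie right of 2 in both genotypes, and Tek lies at 0.09 in Trim47-/- and 1.46 in wild type.

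Levels can be compared between genes only per length, for which the deposited FPKM (fragments scaled to gene length and library size) were used. Tgm2 was the highest of the 10 in untreated cells, at a mean of 19.6 FPKM in Trim47-/- and 29.3 FPKM in wild type, followed by Eng at 18 FPKM in Trim47-/- and 15 FPKM in wild type. After 5-FU Lrg1 led in Trim47-/- at 17.9 FPKM, ahead of Tgm2 at 12.7 and Eng at 11.7 FPKM. In wild type after 5-FU Eng led at 18.1 FPKM, ahead of Lrg1 at 15.5, Tgm2 at 12.5 and Clca3a1 at 11.5 FPKM. Neighbours whose libraries overlapped after 5-FU were Tek and Robo4 in Trim47-/- (1.77 and 1.64 FPKM) and Col18a1 and Lipg in wild type (4.85 and 4.72 FPKM). In untreated cells Col18a1, Lipg and Cdh5 overlapped in Trim47-/- (0.315, 0.27 and 0.175 FPKM), as did Tek with Clca3a1 (1.36 and 1.24 FPKM) and Col18a1 with Cdh5 (0.302 and 0.243 FPKM) in wild type. Cdh5, the defining gene of endothelial junctions, was lowest after 5-FU at 0.116 FPKM in Trim47-/- and 0.198 FPKM in wild type.

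**Figure D5:**
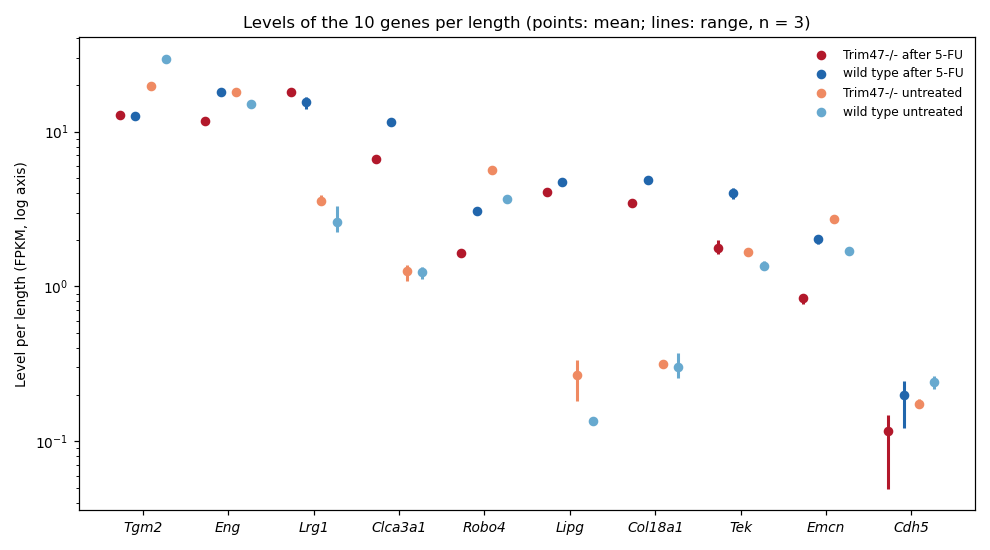
Each point is the mean FPKM of a gene in 1 of the 4 groups, on a log axis, and lines span the lowest to the highest of its 3 libraries. Tgm2 and Eng are among the 3 highest in every group, and the means of Cdh5 are at or below 0.243 FPKM.

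The genes of the same pathways, from lists that exclude the 10, were set beside them with edgeR. For these lists, rose and fell mean higher and lower in Trim47-/- than in wild type of the same state, not a change with 5-FU. Over all genes tested, 27.2% were higher and 27.6% lower after 5-FU, and 17.6% and 15.4% untreated. The count of each list is to be read beside these shares. These lists and the marker lists below were chosen with earlier results of these data known, so their counts are a description. Of 20 genes shared by endothelium and stem cells, 15 fell in Trim47-/- after 5-FU and 5 did not pass, with a median log2 change of -0.37. In untreated cells 7 rose, 3 fell and 10 did not pass, with a median of 0.11. The junction molecule gene Esam averaged 13.8 CPM in Trim47-/- after 5-FU and 41.7 CPM in wild type after 5-FU (log2 change -1.59, adjusted p = 1.95e-08), and 21.7 CPM in untreated Trim47-/- and 15 CPM in untreated wild type (0.53, adjusted p = 0.000327). Tie1, the orphan receptor that partners TIE2, averaged 43.8 CPM in Trim47-/- and 94.8 CPM in wild type after 5-FU, and 120.1 CPM in untreated Trim47-/- and 92.1 CPM in untreated wild type. Its log2 change was -1.12 after 5-FU (adjusted p = 3.59e-09) and 0.38 untreated (adjusted p = 4.02e-05).

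For the angiopoietin and TIE pathway, 3 of 11 genes tested rose in Trim47-/- after 5-FU, near the share of all genes. Another 3 fell, also near the share of all genes, and 5 did not pass. Angpt1, the activating ligand of TIE2, was among those that fell, with 131 CPM in Trim47-/- and 274 CPM in wild type after 5-FU (log2 change -1.07, adjusted p = 4.92e-11). In untreated cells it rose in Trim47-/-, with 349 CPM against 244 CPM in wild type (0.52, adjusted p = 4.34e-08). Dok2, an adaptor that binds the activated receptor, also fell after 5-FU and rose untreated (-0.34 and 0.37, adjusted p = 0.000228 and 0.000247). In untreated cells 4 of the 11 rose and 7 did not pass. Tek, its ligand Angpt1 and its partner Tie1 had the same signs in both comparisons.

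For the SLIT and ROBO pathway, 5 of 13 genes tested rose in Trim47-/- after 5-FU, 5 fell and 3 did not pass, and in untreated cells 2 rose, 5 fell and 6 did not pass. The count that fell after 5-FU was 3 without Trim47-/- after 5-FU replicate 3. In untreated cells the count that fell was 3 without Trim47-/- untreated replicate 3. The count that rose untreated was 0 without wild type untreated replicate 3 or Trim47-/- untreated replicate 1, 1 without replicate 2 of either untreated group, and 4 without wild type after 5-FU replicate 1. Robo3, another roundabout receptor, had the opposite signs to Robo4. It averaged 27.0 CPM in Trim47-/- and 10.9 CPM in wild type after 5-FU (log2 change 1.31, adjusted p = 1.24e-07), and 6.19 CPM in Trim47-/- and 11 CPM in wild type untreated (-0.83, adjusted p = 2.58e-05). Unc5b, a netrin receptor that binds Robo4, had few reads. It averaged 1.09 CPM in Trim47-/- after 5-FU (11 to 18 counts) and 0.316 CPM in wild type after 5-FU (5 counts in each library). Untreated, its means were 0.555 CPM in Trim47-/- and 0.761 CPM in wild type. Unc5b passed the filter on low counts through Trim47-/- after 5-FU, its highest group. Its log2 change after 5-FU, 1.76, is therefore given without a p-value, though the gene is among those counted as higher.

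For the endoglin, BMP and TGF-beta pathway, 7 of 17 genes tested rose in Trim47-/- after 5-FU, 7 fell and 3 did not pass. Tgfbr1, the type I TGF-beta receptor, averaged 96.3 CPM in Trim47-/- and 43.2 CPM in wild type after 5-FU (log2 change 1.16, adjusted p = 2.33e-09). Id1, a target of BMP signalling, averaged 106 CPM in Trim47-/- and 196 CPM in wild type after 5-FU (-0.89, adjusted p = 9.26e-09). Acvrl1, the type I receptor that binds endoglin, averaged 4.75 CPM in Trim47-/- and 2.66 CPM in wild type after 5-FU (0.84, adjusted p = 0.0256). In untreated cells 3 of the 17 rose in Trim47-/- and 5 fell, and the count that rose was 1 without Trim47-/- untreated replicate 3 or wild type after 5-FU replicate 3.

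Of 17 partners of VE-cadherin junctions, 11 fell in Trim47-/- after 5-FU, 1 rose and 5 did not pass, with a median log2 change of -0.36, and in untreated cells 9 rose, 3 fell and 5 did not pass, with a median of 0.31. Esam, Jam3 and Pecam1 stand in both this list and that of genes shared with stem cells. Jam3, a junctional adhesion molecule that also marks stem cells, averaged 1.83 CPM in Trim47-/- and 4.97 CPM in wild type after 5-FU (-1.44, adjusted p = 4.98e-06), and 6.58 CPM in Trim47-/- and 3.69 CPM in wild type untreated (0.83, adjusted p = 0.000259). Cdh5 itself did not pass in either comparison.

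Around Col18a1, 7 of 14 vascular basement membrane genes tested fell in Trim47-/- after 5-FU, 3 rose and 4 did not pass, and in untreated cells 6 rose, 2 fell and 6 did not pass. Col4a1 and Col4a2, the chains of type IV collagen, had log2 changes of -0.94 and -0.98 after 5-FU (adjusted p = 2.9e-08 and 8.6e-10) and 0.32 and 0.47 untreated (adjusted p = 0.000407 and 9.47e-07). Among 13 genes of the lipase family and its regulators, 4 rose, 2 fell and 7 did not pass after 5-FU, and 1 rose, 3 fell and 9 did not pass untreated. Vldlr, a lipoprotein receptor, averaged 72.7 CPM in Trim47-/- and 156 CPM in wild type after 5-FU (-1.11, adjusted p = 4.12e-10). Angptl4, an inhibitor of lipases, averaged 12.2 CPM in Trim47-/- and 7.69 CPM in wild type after 5-FU (0.67, adjusted p = 0.000178). Beside Tgm2, the transglutaminase gene F13a1 averaged 297 CPM in Trim47-/- and 121 CPM in wild type after 5-FU (1.29, adjusted p = 1.07e-10), and 85.4 CPM in Trim47-/- and 162 CPM in wild type untreated (-0.92, adjusted p = 6.56e-09). F13a1 is also a monocyte marker. In all, 1 of 5 transglutaminase genes tested rose and 1 fell in Trim47-/- after 5-FU, and 2 fell untreated. Tgm3, among those that fell untreated, passed the filter on low counts through the 5-FU groups. Untreated, it had 7 counts in each Trim47-/- library and 7 to 14 in wild type, so its call carries little weight. The count that rose was 2 without Trim47-/- after 5-FU replicate 2, and the untreated count was 1 when any untreated library other than wild type replicate 3 was left out. Of 3 chloride channel genes tested beside Clca3a1, 1 fell in Trim47-/- after 5-FU and 2 fell untreated. Clca3a2, among those that fell in both states, passed the filter on low counts through the 5-FU groups. Untreated, it had 0 to 3 counts a library in Trim47-/- and 4 to 9 in wild type, so that call carries little weight. The treated call was lost when any library other than those of untreated Trim47-/- was left out, and the untreated count was 1 when any untreated library other than wild type replicate 1 was left out.

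Markers of other cells moved with these comparisons. Here too, rose and fell mean higher and lower in Trim47-/- than in wild type of the same state, not a change with 5-FU. The shares over all genes tested were 27.2% higher and 27.6% lower after 5-FU, and 17.6% and 15.4% untreated. The 20 endothelial defining markers summed to 572 to 581 CPM in Trim47-/- after 5-FU, 975 to 999.6 CPM in wild type after 5-FU, 704 to 723 CPM in untreated Trim47-/- and 594 to 621 CPM in untreated wild type. Adgrl4 made up most of this, with a mean of 554 CPM in Trim47-/- after 5-FU, 961 CPM in wild type after 5-FU, 687 CPM in untreated Trim47-/- and 577 CPM in untreated wild type. Without Adgrl4, a split chosen after the values were seen, the other 19 summed to 22 to 24.3 CPM in Trim47-/- after 5-FU, 22.7 to 24.0 CPM in wild type after 5-FU, 26.7 to 28.4 CPM in untreated Trim47-/- and 28.7 to 30.4 CPM in untreated wild type. Of the 20, 9 were under 1 CPM in all 12 libraries. Kdr, a VEGF receptor of endothelium, averaged 0.604 CPM in Trim47-/- after 5-FU, 1.5 CPM in wild type after 5-FU, 1.94 CPM in untreated Trim47-/- and 1.18 CPM in untreated wild type. Its log2 change was -1.30 after 5-FU (adjusted p = 0.00243) and 0.72 untreated (adjusted p = 0.0313). Stab1, a scavenger receptor of sinusoidal endothelium and macrophages, had the opposite signs, with 6.44 CPM in Trim47-/- and 1.88 CPM in wild type after 5-FU (1.78, adjusted p = 1.68e-06), and 3.95 CPM in Trim47-/- and 5.86 CPM in wild type untreated (-0.57, adjusted p = 0.00649). The Notch ligand gene Dll4 and Rasip1 fell in untreated Trim47-/- (-0.39 and -0.93, adjusted p = 0.0222 and 0.000151) and did not pass after 5-FU (-0.03 and -0.10). Plvap, a protein of fenestrated endothelium, fell in Trim47-/- after 5-FU (-0.60, adjusted p = 0.0255) and did not pass untreated (0.23). Of the 12 endothelial markers tested, 4 fell in Trim47-/- after 5-FU, 1 rose and 7 did not pass, and in untreated cells 3 rose, 3 fell and 6 did not pass. Cldn5 is among those that fell after 5-FU and those that rose untreated. It passed the filter on low counts through untreated Trim47-/-, with 22 to 25 counts a library. It had 5 to 9 counts in untreated wild type, 6 to 9 in wild type after 5-FU and 0 to 4 in Trim47-/- after 5-FU. Its calls thus carry little weight. The count that fell after 5-FU was 2 without wild type after 5-FU replicate 2. The count that rose untreated was 1 without wild type untreated replicate 2 or 3 or Trim47-/- untreated replicate 1. Of the other lists, LT-HSC markers summed to 695 to 769 CPM in Trim47-/- after 5-FU, against 1123 to 1285 CPM in wild type after 5-FU, and 11 of 12 fell. Procr and Mecom stand in this list and in that of genes shared with endothelium, as does Ly6a. Monocyte markers summed to 807 to 841 CPM in Trim47-/- after 5-FU, against 409 to 418 CPM in wild type after 5-FU, and 8 of 10 tested rose. In untreated cells the LT-HSC sums were 1239 to 1354 CPM in Trim47-/- and 1119.7 to 1218 CPM in wild type, with 4 of 12 genes higher, and the monocyte sums 311 to 333 CPM in Trim47-/- and 493 to 514 CPM in wild type, with 5 of 10 tested lower. Stromal markers summed to 51.7 to 56.1 CPM in Trim47-/- after 5-FU, 67.6 to 73.2 CPM in wild type after 5-FU, 96.1 to 102 CPM in untreated Trim47-/- and 74.6 to 79.5 CPM in untreated wild type. Pdgfrb made up most of these sums, with means of 48.7, 63.4, 89.1 and 72.3 CPM in the same order of groups. Of the 10 stromal genes, 6 were under 1 CPM in all 12 libraries. Of the stromal genes, 2 of 4 tested fell in Trim47-/- after 5-FU and 3 of 4 rose in untreated Trim47-/-. Megakaryocyte markers fell in Trim47-/- in both states, 7 of 10 tested after 5-FU and 8 of 10 untreated, with sums of 204 to 210.3 CPM in Trim47-/- and 259.6 to 272 CPM in wild type after 5-FU, and of 93.1 to 97.3 CPM in Trim47-/- and 139 to 141 CPM in wild type untreated. The count after 5-FU was 4 without wild type after 5-FU replicate 2 or Trim47-/- after 5-FU replicate 2, at most 6 with any library left out, and 4 with the DESeq2 test. Of 12 erythroid markers, 6 fell and 1 rose in Trim47-/- after 5-FU, and 8 rose and 1 fell untreated. Of 12 neutrophil markers, 7 rose and 3 fell in untreated Trim47-/-, while their sum was lower, with 3259 to 3313 CPM in Trim47-/- and 3323 to 3459 CPM in wild type. The part of any of these lists in the values of the 10 genes was not tested.

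Genes outside the 10 with the most similar pattern were sought by Pearson correlation of log2 CPM over the 12 libraries, which fall into 4 groups and share group means, among 9255 candidates with a mean of at least 10 CPM. Emcn was most like Kcnh2 (r = 0.996), Robo4 most like Zfp608 (0.997), Eng most like Bcl11a (0.986) and Tek most like Psrc1 (0.985). Clca3a1 was most like Vwf, the von Willebrand factor gene (0.994), Col18a1 most like Tcn2 (0.997), Lipg most like Chil3 (0.992), Lrg1 most like S100a6 (0.993) and Tgm2 most like Tagap (0.996). Cdh5 had the weakest match, Sfswap (0.88).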

How the data were processed

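The deposited table gives, for each of 12 libraries, a whole-number count per gene, not normalised, and an FPKM value made by the authors, per the file headers. Libraries were paired-end and poly-A selected with a stranded kit, per the labels. Named in the submitters' processing notes, without roles, are GRCm38, edgeR, StringTie, HISAT2 and CASAVA 1.8. For the counter, its strand setting and the annotation release, the sources used here give no entry. The deposited FPKM were used only for levels between genes.

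The test was edgeR 4.0.16 under R 4.3.3 (TMM, default low-count filter over the 4 groups, quasi-likelihood, 1 mean per group over all 12 libraries), with Benjamini-Hochberg adjustment over 16319 genes and a threshold of 0.05. The procedure was tested on counts simulated with the spread fitted to these same libraries, which cannot show whether calls would hold between animals. Alternatives were DESeq2 1.42.0, its size factors, no filter, a replicate block, the 6 libraries compared, adjusted p under 0.01, and each library left out. The 10 members and the 16 lists were chosen with earlier results of these data known. Named in addition were, per list, up to 3 genes with the smallest p and partners of the members, and for each member the most correlated gene. Promoter sequences are from RefSeq, where 7 of the 10 matched.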

Additional observations from a re-analysis of the deposited data

Results flagged for a closer look

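In 6 genes every library moved one way between genotypes after 5-FU and the other way untreated, and these differences were not tested. The log2 change of Trim47-/- against wild type after 5-FU minus that untreated was -1.85 for Emcn, -1.44 for Robo4, -1.37 for Tek, -1.12 for Lipg, -0.80 for Eng and 0.70 for Tgm2. Groups without overlap of this kind, lower after 5-FU and higher untreated, were found in 15% of all genes, and the opposite kind in 12.7%. For Lipg the treated libraries were only just apart. For Eng the 5-FU change also had opposite signs in every library of Trim47-/- and of wild type. The difference between these 5-FU changes is by construction the same -0.80 given above, not a second result, and was not tested.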

How the results depend on the processing

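The count of members higher in Trim47-/- after 5-FU was 1, and it was 0 without the low-count filter, 0 at an adjusted p under 0.01, 2 with the replicate number as a block, and 0 to 2 with 1 library left out. Members lower after 5-FU stayed at 6 to 7, and members higher untreated at 4 to 6. Genes higher in untreated Trim47-/- numbered 1615 at an adjusted p under 0.01, against 2873. The replicate numbers did not pair libraries, since same-numbered libraries of groups compared had deviations correlated at -0.13 to 0.058. Changes near 0 reversed: untreated Col18a1 was -0.06 to 0.22 with 1 library left out (-0.02 in another case), and untreated Clca3a1 was 0.01 without the filter and -0.07 to 0.10 with 1 library left out (reversed at 0.00, 0.01, 0.06 and 0.10). The genotype difference of the 5-FU change was 0.66 for Tgm2 without the filter, and with 1 library left out it ran from -1.34 to -0.93 for Lipg, -0.62 to -0.35 for Col18a1, -0.36 to -0.05 for Lrg1 and, with a change of sign, -0.45 to 0.16 for Cdh5. The cause was not tested. After 5-FU, Robo4, Emcn, Eng, Tek, Clca3a1 and Col18a1 kept their calls in every alternative, as did Robo4, Emcn, Eng, Lipg and Tgm2 untreated. The smallest counts were those of Cdh5, at 3 to 17 a library.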
